A study of Mus musculus with 8 samples.

Results

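A set of 9 genes that mark pancreatic duct epithelium or the change of acinar cells toward a duct-like state were followed across 8 mouse pancreata: Krt19, Krt7, Krt8, Krt18, Epcam, Sox9, Onecut1, Prom1 and Cd24a. They were chosen by symbol, and all 9 had a row among the 15047 genes of the deposited table. The values are rlog values, a log2 scale in which DESeq2 corrects for library size and pulls the values of weakly counted genes toward their mean, so differences of low genes are understated. Total RNA was taken from bulk pancreas. The 3 LFD mice and the 3 HFD mice were male C57BL/6 WT mice that had received a low-fat diet or a diet with 60% of its calories from fat for 10 weeks, starting at an age of 4 weeks. The 2 ob/ob mice were male, leptin-deficient C57BL/6J; ob/ob animals on standard chow, so genotype and chow both set them apart from the LFD group and the 2 cannot be told apart. According to the methods of the study, mouse pancreatic tumor organoids had been placed in the pancreas of such mice, but the sample labels do not mention a transplant. Host duct cells, metaplastic acinar cells and transplanted cells therefore cannot be told apart in these libraries. Nor can more cells of a type be told apart from more RNA per cell in bulk tissue. The labels give the mice of a group as separate samples and no more, so p-values measure the spread between these samples. The read depth behind each value is unknown, since rlog values carry no counts.

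The exocrine pancreas is built from acinar cells, which make the digestive enzymes, and from ducts, which carry the juice and add bicarbonate to it. Keratins are the intermediate filament proteins of epithelial cells and assemble as pairs of a type I and a type II chain. Krt8 (type II) with Krt18 (type I) is the pair of simple epithelia, acinar cells included, while Krt7 (type II) and Krt19 (type I) are more restricted to ducts. When acinar cells lose their identity they can take on duct features, a change called acinar-to-ductal metaplasia, in which duct keratins and Sox9 are commonly used as marks. Epcam encodes an epithelial adhesion protein, Prom1 the membrane protein prominin-1 of apical protrusions, and Cd24a a glycosylated surface protein of epithelial and immune cells. Sox9 is a transcription factor of ducts and of pancreatic progenitors. Onecut1, also called HNF6, is a transcription factor needed for duct development.

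Positions are on GRCm38 (GENCODE M21). Krt7 (chr15:101411043-101430313, plus strand), Krt8 (chr15:101996698-102004482, minus strand) and Krt18 (chr15:102028180-102032027, plus strand) share a stretch of chromosome 15, where 23697 bases separate Krt8 from Krt18. Krt19 (chr11:100140810-100148665) and Sox9 (chr11:112782224-112787760) lie on chromosome 11, and Onecut1 on chromosome 9 (chr9:74861921-74891781). Epcam lies on chromosome 17 (chr17:87635979-87651129), Prom1 on chromosome 5 (chr5:43993620-44102032) and Cd24a on chromosome 10 (chr10:43578284-43584265). All 9 are protein-coding.

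Promoter windows from RefSeq (GRCm38.p6), 300 bases around a transcript start as RefSeq places it, were available for 6 members: Krt7, Krt8, Krt18, Epcam, Onecut1 and Prom1. The windows of the 3 keratins on chromosome 15, which were highest in the same mice, and that of Onecut1, which was lowest in one of those mice, are shown 5′ to 3′ on the strand of the gene. The RefSeq start need not be the outer end of the GENCODE gene: the Krt7 window lies wholly inside the gene as annotated there. Capitals mark a match, on either strand, to the ONECUT core ATTGAT, the SOX core AACAAT, the TATA box TATAAA or the GC box GGGCGG.
Krt7 (chr15:101412153-101412452, plus strand): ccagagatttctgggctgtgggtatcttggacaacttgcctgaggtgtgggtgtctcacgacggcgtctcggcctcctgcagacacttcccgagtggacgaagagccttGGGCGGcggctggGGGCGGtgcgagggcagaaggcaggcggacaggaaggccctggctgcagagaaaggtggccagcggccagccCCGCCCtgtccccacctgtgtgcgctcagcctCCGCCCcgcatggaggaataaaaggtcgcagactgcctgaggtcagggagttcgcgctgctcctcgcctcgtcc
Krt8 (chr15:102004293-102004592, minus strand): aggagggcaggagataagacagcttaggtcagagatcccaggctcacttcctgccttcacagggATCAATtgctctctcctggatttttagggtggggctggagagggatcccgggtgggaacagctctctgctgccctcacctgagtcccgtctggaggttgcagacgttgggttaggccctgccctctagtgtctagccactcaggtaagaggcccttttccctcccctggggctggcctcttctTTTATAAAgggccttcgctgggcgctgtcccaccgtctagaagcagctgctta
Krt18 (chr15:102027966-102028265, plus strand): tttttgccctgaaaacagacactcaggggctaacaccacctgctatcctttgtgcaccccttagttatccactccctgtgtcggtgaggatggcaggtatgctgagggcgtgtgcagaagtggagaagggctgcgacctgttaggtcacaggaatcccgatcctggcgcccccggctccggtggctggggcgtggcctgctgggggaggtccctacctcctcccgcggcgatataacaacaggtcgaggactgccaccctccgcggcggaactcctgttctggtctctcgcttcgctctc
Onecut1 (chr9:74861671-74861970, plus strand): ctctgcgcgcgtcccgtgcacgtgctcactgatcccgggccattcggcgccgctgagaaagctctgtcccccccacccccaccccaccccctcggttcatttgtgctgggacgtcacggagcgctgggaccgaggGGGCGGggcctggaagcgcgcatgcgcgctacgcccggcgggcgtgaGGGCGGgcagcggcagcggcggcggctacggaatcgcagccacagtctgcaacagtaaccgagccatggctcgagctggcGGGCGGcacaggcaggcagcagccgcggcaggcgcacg
The Krt7 window held 4 GC boxes and the Onecut1 window 3. The Krt8 window held 1 ONECUT core and 2 overlapping TATA box matches on opposite strands, and the Krt18 window held none of the 4 motifs. Of all 32851 promoter windows of the same length, 35.7% held the GC box, 13.6% the TATA box, 10.7% the SOX core and 7.54% the ONECUT core, so each of these matches is of a kind found in many promoters. Within these windows the motifs overlap only in the Krt8 TATA match.

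Krt7 had rlog values of 8.92, 9.74 and 8.89 in the LFD mice, 9.78, 11.52 and 11.63 in the HFD mice, and 9.87 and 9.39 in the ob/ob mice. HFD replicates 2 and 3 stood far above the rest, and HFD replicate 1 exceeded the highest LFD mouse by little. Krt19 had 9.26, 9.95 and 9.33 in LFD, 9.82, 11.26 and 11.47 in HFD, and 10.05 and 8.95 in ob/ob. Here HFD replicate 1 lay inside the LFD range, and the ob/ob mice lay one above and one below it.

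Krt8 had rlog values of 11.92, 12.25 and 12.12 in LFD, 12.10, 13.13 and 13.70 in HFD, and 12.20 and 11.74 in ob/ob. Krt18, its partner, had 11.94, 12.36 and 12.18 in LFD, 11.98, 12.98 and 13.25 in HFD, and 12.04 and 11.34 in ob/ob. Both were highest in HFD replicates 2 and 3 and lowest in ob/ob replicate 2, and for both HFD replicate 1 was within the LFD range. Epcam had 9.74, 10.24 and 10.04 in LFD, 10.35, 11.42 and 10.95 in HFD, and 10.40 and 9.48 in ob/ob. All 3 HFD mice lay above all 3 LFD mice for Epcam, and HFD replicate 2, not replicate 3, was the highest.

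**Figure D1:**
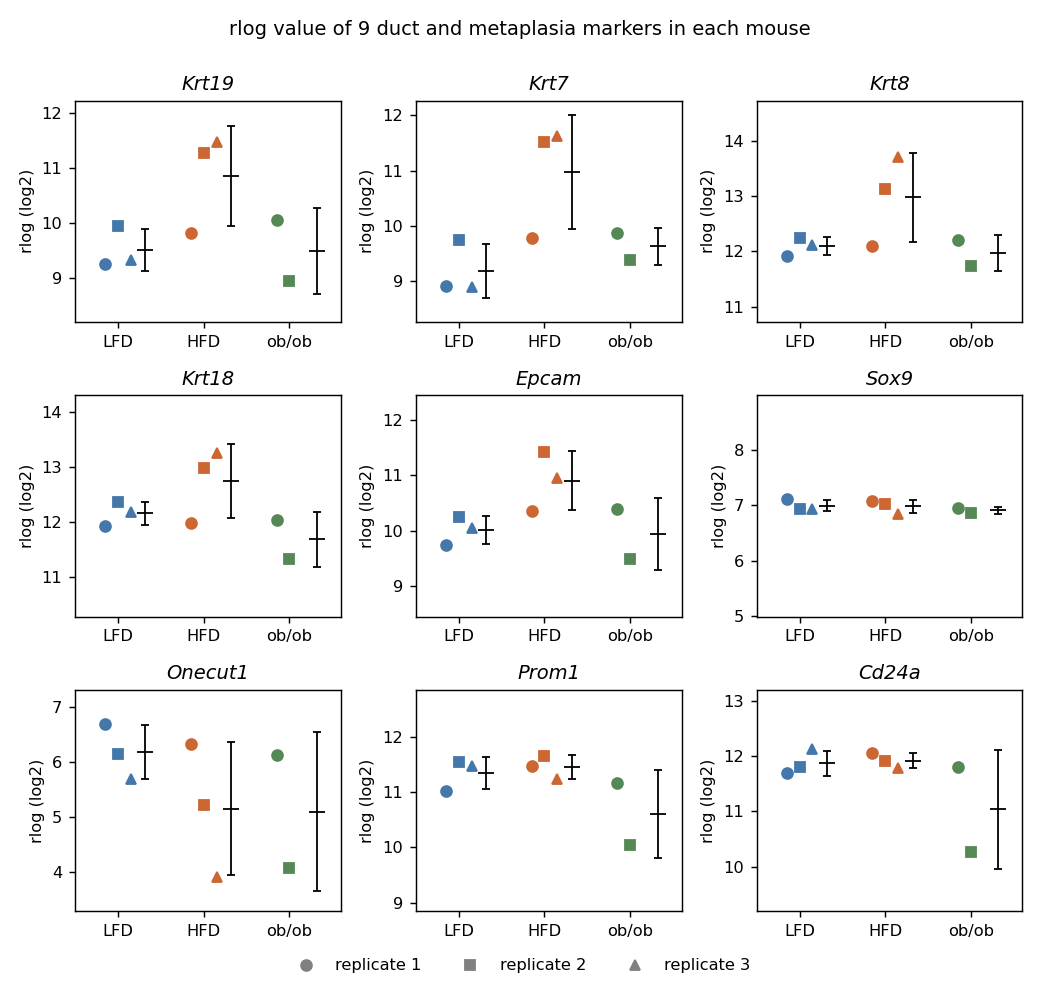
rlog value (log2) of each of the 9 genes in each mouse, by group, with symbols for the replicate number and black bars for the group mean ± SD (n = 3, 3 and 2). All panels span the same number of log2 units. HFD replicates 2 and 3 stand above the other mice for the 4 keratins and Epcam, and ob/ob replicate 2 is the lowest mouse for 6 of the 9 genes.

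Sox9 was nearly flat. It had rlog values of 7.12, 6.93 and 6.94 in LFD, 7.07, 7.03 and 6.85 in HFD, and 6.96 and 6.87 in ob/ob. Its range over the 8 mice was 0.27, and 0.372% of all genes had a smaller one, against a median range of 1.12 over all genes.

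Onecut1 had rlog values of 6.68, 6.15 and 5.70 in LFD, 6.32, 5.22 and 3.92 in HFD, and 6.12 and 4.08 in ob/ob. HFD replicate 3 and ob/ob replicate 2 were the low mice, HFD replicate 2 was between them and the LFD mice, and the first replicate of each obese group was inside the LFD range. Prom1 had 11.02, 11.54 and 11.47 in LFD, 11.48, 11.65 and 11.23 in HFD, and 11.17 and 10.04 in ob/ob. Cd24a had 11.69, 11.80 and 12.12 in LFD, 12.05, 11.91 and 11.78 in HFD, and 11.80 and 10.27 in ob/ob. For both surface proteins 7 mice lay close together and ob/ob replicate 2 was apart, below all others.

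**Figure D2:**
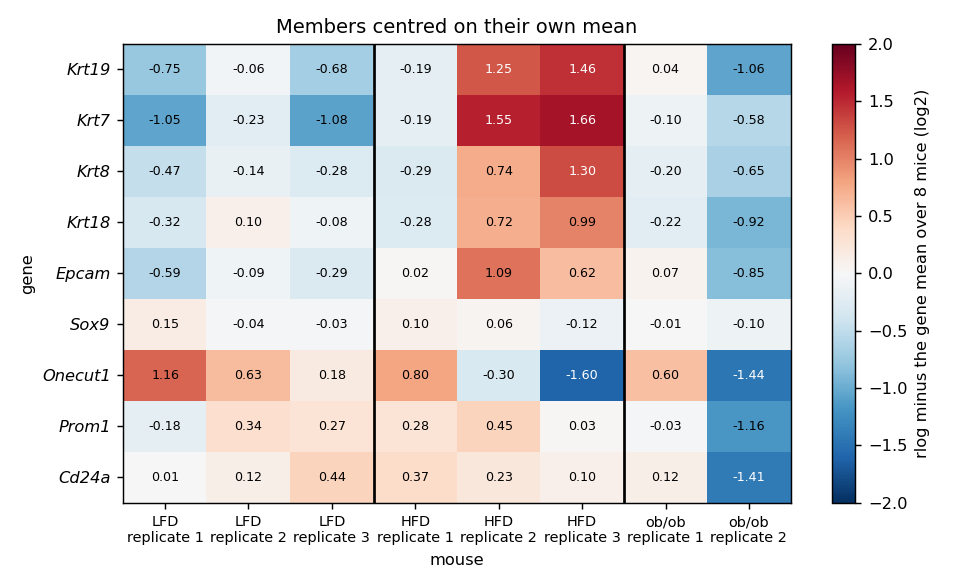
rlog of each gene minus its mean over the 8 mice (log2), with 1 column per mouse and 1 row per gene; red is above and blue below the gene mean. The keratins and Epcam are red in HFD replicates 2 and 3, Onecut1 is blue in HFD replicate 3 (-1.60) and ob/ob replicate 2 (-1.44), and the Sox9 row stays between -0.12 and 0.15.

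The first comparison asked whether these marks differed with diet-induced obesity. Krt7 was on average 1.79 ± 0.48 (SE) higher in HFD than in LFD on the log2 scale, Krt19 1.34 ± 0.46, Epcam 0.90 ± 0.32, Krt8 0.88 ± 0.38 and Krt18 0.58 ± 0.35. None of the 9 genes passed limma's test at an adjusted p of 0.05 over all genes, and neither did any other gene (0% of 15047). The smallest adjusted p among the members was 0.18, for Krt7. At an unadjusted p under 0.05, 4 of the 9 were higher in HFD (Krt7, Epcam, Krt19 and Krt8) and 0 were lower, beside 11.5% of all genes higher and 8.35% lower. The HFD mice lay wholly above the LFD mice for 2 members, Krt7 and Epcam, and wholly below them for 0, beside 12.9% and 12.3% of all genes. The median difference of the members was 0.58, against 0.03 over all genes. HFD replicate 1 decided the calls: without it Krt7 (limma adjusted p = 0.0112), Krt19 (0.0167), Krt8 (0.0186), Epcam (0.0320) and Krt18 (0.0407) passed, as did 18.7% of all genes, 2812 in number. Taken in either direction, the count of 4 was 1 without LFD replicate 1, LFD replicate 3 or HFD replicate 2. It was 2 without HFD replicate 3 and 6 without HFD replicate 1. The 6 added Krt18, which was higher in HFD, and Onecut1, which was lower (-1.61).

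Of the other 4 members, 3 had HFD means close to those of LFD. Sox9 differed by -0.01, with a 95% confidence interval from -0.44 to 0.41, Prom1 by 0.11 (-0.57 to 0.79) and Cd24a by 0.04 (-0.77 to 0.85). Onecut1 was lower by a mean of 1.02 log2 units (difference -1.02 ± 0.68, limma adjusted p = 0.41), and its interval, from -2.58 to 0.53, was the widest of the 9. Its difference was -0.41 without HFD replicate 3 and -1.61 without HFD replicate 1, and without HFD replicate 3 those of Krt8 and Krt18 were 0.52 and 0.33.

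The second comparison set the leptin-deficient ob/ob mice on chow against the LFD mice. Krt19, Krt8 and Epcam lay near the LFD mean, with differences of -0.01, -0.12 and -0.07, while Krt7 differed by 0.44 and Krt18 by -0.47. The standard errors of the keratins and Epcam were 0.36 to 0.53, so that the 95% confidence interval of Krt19 ran from -1.18 to 1.16 and that of Epcam from -0.89 to 0.75. Cd24a (-0.83 ± 0.40) and Prom1 (-0.74 ± 0.34) were lower, with limma adjusted p of 0.284 and 0.273. Onecut1 differed by -1.08 ± 0.76 (adjusted p = 0.437), and Sox9 by -0.08 with an interval from -0.56 to 0.39. At an unadjusted p under 0.05 there were 0 members in either direction and 0 at the adjusted threshold, beside 11.6% of all genes higher, 7.18% lower and 0% past the adjusted threshold. No member separated the groups, whereas 24.1% of all genes lay wholly higher in ob/ob and 21.8% wholly lower. The Prom1, Cd24a and Onecut1 values rested on ob/ob replicate 2. Without it, the differences were -0.17, -0.06 and -0.05, and those of Krt19 and Epcam became 0.54 and 0.39, and that of Krt18 -0.11. The Krt7 difference ranged from 0.20 without ob/ob replicate 1 to 0.72 without LFD replicate 2.

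**Figure D3:**
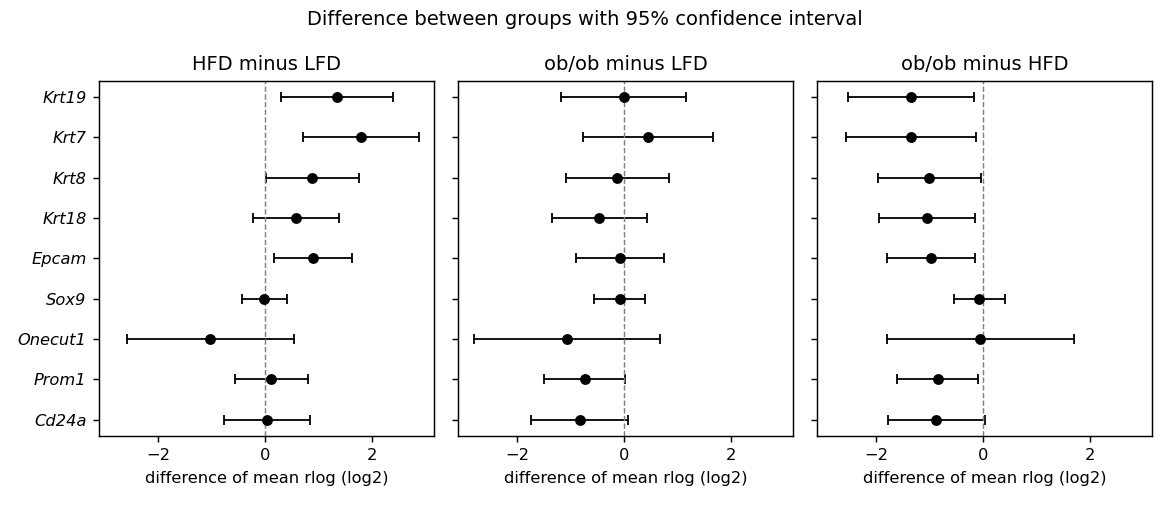
Difference of the group mean rlog (log2) for each gene, with the 95% confidence interval of the limma fit over all 8 mice, for HFD minus LFD, ob/ob minus LFD and ob/ob minus HFD; the dashed line is no difference. The intervals for Krt7, Krt19, Epcam and Krt8 lie above 0 in the first panel, and those of 6 genes lie below 0 in the third, before any adjustment over genes.

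The third comparison tested the difference between the obesity models directly. All 9 differences were negative, that is, lower in ob/ob than in HFD. Krt19 differed by -1.35 ± 0.51, Krt7 by -1.35 ± 0.53, Krt18 by -1.05 ± 0.39, Krt8 by -1.01 ± 0.42, Epcam by -0.97 ± 0.36 and Prom1 by -0.85 ± 0.34, each with an unadjusted limma p between 0.0260 and 0.0427. These 6 of 9 compare with 1.63% of all genes lower and 2.28% higher at that threshold, while 0% passed after adjustment and the adjusted p of every member was 1.00. The remaining 3 members were Cd24a (-0.87 ± 0.40), Sox9 (-0.07 ± 0.21) and Onecut1 (-0.05 ± 0.76). Without ob/ob replicate 2 the Cd24a difference was -0.10, and without ob/ob replicate 1 it was -1.64, while Onecut1 ranged from -1.07 to 0.97 without single mice. Prom1 was the 1 member for which both ob/ob mice lay below all HFD mice, beside 5.42% of all genes lower and 7.92% higher without overlap. The count of 6 rested on single mice: it was 0 without HFD replicate 2 and 2 without HFD replicate 3. It was 5 without HFD replicate 1 or any 1 LFD mouse, and 6 with each mouse centred on its median. When the 2 groups were fitted alone the count was 0. Without ob/ob replicate 2 the Epcam difference was -0.51 and that of Prom1 -0.28. Leaving out each mouse in turn moved the difference between -1.90 and -0.80 for Krt19, -1.95 and -1.02 for Krt7, -1.45 and -0.65 for Krt8, -1.42 and -0.69 for Krt18, -1.43 and -0.51 for Epcam and -1.42 and -0.28 for Prom1.

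The level of acinar genes varied between the mice along with several of these values. The mean rlog of 29 acinar enzyme and secretory genes was 17.06, 17.32 and 17.61 in LFD, 17.41, 15.30 and 13.42 in HFD, and 16.72 and 13.72 in ob/ob. HFD replicates 2 and 3 and ob/ob replicate 2 were thus the acinar-poor mice. Onecut1 was lowest in the same 3 mice, as were the acinar transcription factors Ptf1a (6.87 and 4.6 in HFD replicates 2 and 3, 5.12 in ob/ob replicate 2, and 7.82 to 8.45 in the other 5 mice), Rbpjl (10.15, 7.89 and 8.42, against 11.31 to 11.77) and Bhlha15 (9.25, 7.55 and 7.69, against 10.35 to 11.48). The keratins did not follow the acinar list in the same way in every mouse. Krt7 was 11.52 and 11.63 in the 2 acinar-poor HFD mice but 9.39 in the acinar-poor ob/ob mouse, where Krt8, Krt18, Krt19 and Epcam were each at their lowest. The 8 mice fall into separate levels of the acinar list, with fewer than 6 mice at each, so no correlation was computed. A fit with the acinar mean as a covariate is given as description only. All acinar-poor mice were obese, so the covariate overlaps with group, and the part of acinar content in the differences was not tested. With the acinar mean as a covariate, the Onecut1 difference turned from -1.02 to 0.15 in HFD and from -1.08 to 0.19 in ob/ob, and Krt7 in HFD was 1.32 (limma adjusted p = 0.391), Krt19 1.08, Epcam 0.93, Krt8 0.50 and Krt18 0.36. In the same fit Prom1 was 0.47 and Cd24a 0.50 higher in HFD than in LFD. The count of members under an unadjusted p of 0.05 in HFD against LFD was then 2 instead of 4. In ob/ob against HFD it was 7 instead of 6.

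**Figure D4:**
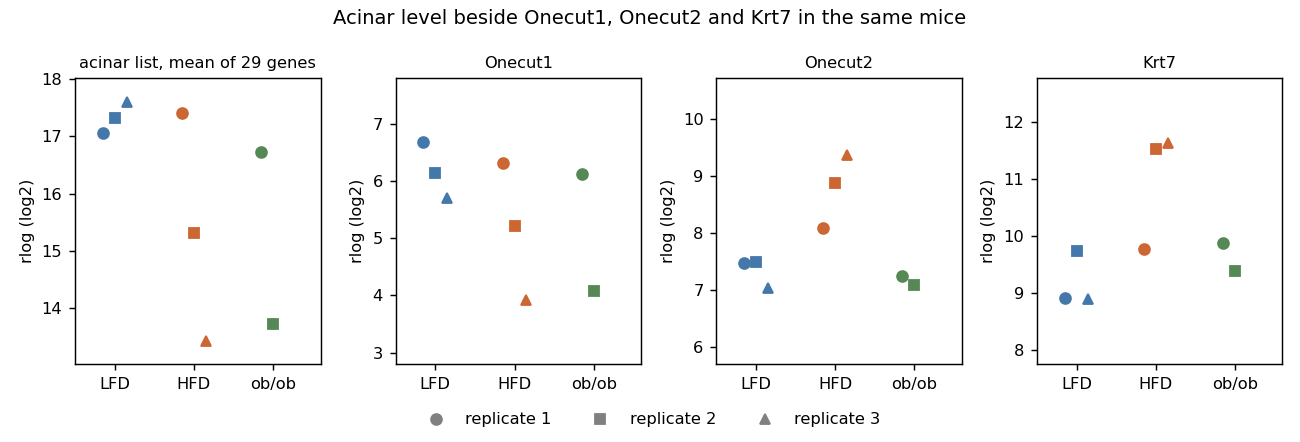
Mean rlog of 29 acinar genes, and the rlog of Onecut1, Onecut2 and Krt7, in each of the 8 mice (log2), by group and replicate number, on axes of equal span. The mice lowest for Onecut1, HFD replicate 3 and ob/ob replicate 2, are also lowest for the acinar mean, whereas Onecut2 and Krt7 are high in HFD replicates 2 and 3 and not in ob/ob replicate 2.

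Onecut2 and Onecut3 were both highest in HFD replicates 2 and 3, where Onecut1 was low. Onecut3 had low values in every mouse (1.94 to 4.08), beside a median of 7.16 for the mean rlog over all genes. Onecut2, a paralog of Onecut1, had rlog values of 7.47, 7.49 and 7.04 in LFD, 8.09, 8.87 and 9.37 in HFD, and 7.24 and 7.08 in ob/ob. All HFD mice lay above all LFD and ob/ob mice, by a mean of 1.44 ± 0.31 over LFD (limma adjusted p = 0.175) and with ob/ob at -1.62 ± 0.35 from HFD (adjusted p = 0.883). Onecut3 was at 2.49, 3.04 and 2.20 in LFD, 2.67, 3.85 and 4.08 in HFD, and 1.94 and 2.58 in ob/ob, so that its HFD mean exceeded the LFD mean by 0.96 ± 0.43 (limma adjusted p = 0.256), and ob/ob minus HFD was -1.28 ± 0.48 (1.00). Without HFD replicate 1 the HFD difference of Onecut2 was 1.78 (limma adjusted p = 0.0126) and that of Onecut3 1.39 (0.0341), among the 2812 genes that passed then. Of the 4081 31-base words of the Onecut1 transcripts, 53.0% recur on either strand in other genes, nearly all in Gm20649 (52.5%), and 0.490% in Onecut3. The value of Onecut1 may thus depend on how reads were assigned between Onecut1 and Gm20649, which was not tested.

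The balance between keratin partners was compared within each mouse, which takes out any change common to both partners. Krt8 minus Krt18 was -0.02, -0.10 and -0.06 in LFD, 0.12, 0.15 and 0.46 in HFD, and 0.16 and 0.40 in ob/ob. All 5 obese mice lay above all 3 LFD mice, with a mean difference of 0.32. Krt7 minus Krt19 was -0.34, -0.21 and -0.43 in LFD, -0.04, 0.25 and 0.16 in HFD, and -0.18 and 0.44 in ob/ob, again with no overlap and with a mean difference of 0.45. Separation from LFD was common among single genes: 12.9% lay wholly higher and 12.3% wholly lower in HFD, and 24.1% and 21.8% in ob/ob. How many other gene pairs separate the 5 obese from the 3 LFD mice was not counted, so the separation cannot be called particular to keratins. In an exact two-sided permutation test of the 5 obese against the 3 LFD mice, p was 0.0357 for each pair (0.0357 adjusted over the 2 pairs), the smallest p that these numbers of mice allow. This pooling of the obese groups was chosen after the values had been seen, so the p describes the separation and is not independent evidence of it. For HFD alone the exact p was 0.1 for each pair, and for ob/ob alone 0.2, in both cases the smallest possible. These tests of single groups were not part of the adjustment. Without any 1 mouse the design could not reach 0.05, and the differences stayed between 0.27 and 0.35 and between 0.38 and 0.53. Of the 31-base words of Krt8, 36.0% recur in other genes, 32.2% in the pseudogene Krt8-ps, and 11.4% of those of Krt18 do, 9.31% in the pseudogene Gm5200, none of them among the genes of the table. For Krt7 the share was 3.03% and for Krt19 0.439%.

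**Figure D5:**
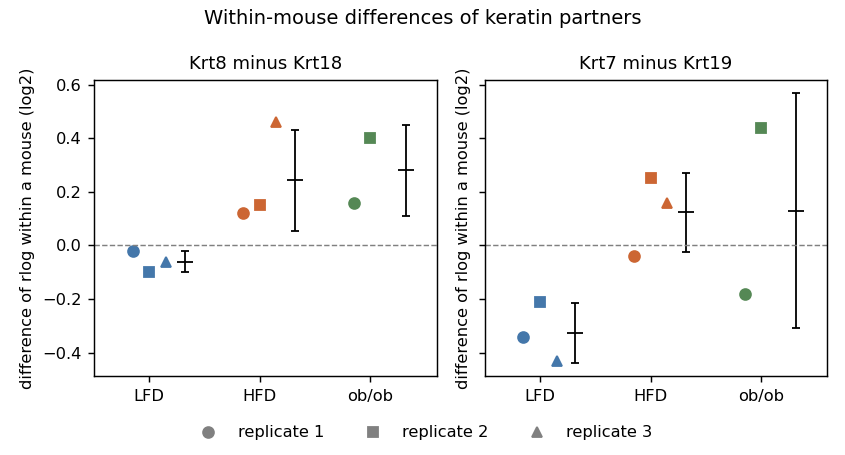
Difference of rlog values within each mouse (log2) for Krt8 minus Krt18 and Krt7 minus Krt19, by group, with group mean ± SD (n = 3, 3 and 2) in black; the dashed line is 0. The LFD mice lie between -0.10 and -0.02 for the first pair and between -0.43 and -0.21 for the second, below all 5 obese mice.

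Among the members, likeness was measured as the root mean square difference between mean-centred rlog values over the 8 mice. Prom1 and Cd24a were the closest pair (0.181), followed by Krt8 and Krt18 (0.192), Krt18 and Epcam (0.270) and Krt19 and Krt7 (0.284). Krt7 and Onecut1 were the farthest apart (1.71). Outside the members, the nearest gene to Krt18 was Elf3 (0.124), an epithelial ETS transcription factor, followed by Lsr (0.183), a tricellular junction protein. Cd24a was nearest to Galnt3 (0.0927), which starts mucin-type O-glycosylation, and to the tight junction gene Ocln (0.109). Prom1 was nearest to Fxyd3 (0.126) and Galnt3 (0.166). Krt7 was nearest to Serpinb5 (0.159) and Mboat1 (0.176), Krt19 to Tm4sf4 (0.194) and Fut2 (0.207), and Krt8 to Plek2 (0.168) and Tm4sf4 (0.169). Epcam was nearest to the desmosomal cadherin gene Dsg3 (0.182) and to Elovl7 (0.186), and Onecut1 to Large2 (0.224) and Myadml2 (0.226). For the flat gene Sox9 the nearest were Rnpc3 (0.0483) and Fam208a (0.0584), and the SD over the 8 mice was 0.0889 for Sox9 and 0.0885 for Fam208a.

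Of 24 other duct genes, 17 had a higher and 7 a lower mean in HFD than in LFD, with a median of 0.48. At an unadjusted limma p under 0.05, 5 of the 24 were higher and 0 lower in HFD, beside 11.5% and 8.35% of all genes, all with adjusted p of 0.177 or more: Glis3 (1.15), a transcription factor of duct and islet development, Car2 (1.58), which supplies bicarbonate, Tspan8 (1.78), the bicarbonate cotransporter gene Slc4a4 (1.07) and Spp1 (0.99), which encodes osteopontin. Car2 had rlog values of 7.15, 8.33 and 7.45 in LFD, 8.72, 8.90 and 10.04 in HFD, and 7.37 and 7.12 in ob/ob. In ob/ob against LFD 1 of the 24 was higher at that threshold (Spp1, 1.43), Muc1 (-1.65) and Krt23 (-0.96) were among the lower ones, beside 11.6% of all genes higher and 7.18% lower, and the median was -0.24. In ob/ob against HFD 5 were lower and 1, Aqp5 (2.0), was higher, beside 1.63% and 2.28% of all genes, with a median of -0.65. The genes of these counts other than Glis3, Car2 and Tspan8 were named after their values were seen. Spp1 is also made by macrophages, whose marker level was higher in both obese groups. The part of macrophages in the Spp1 values was not tested.

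The list of 25 genes that regulate or accompany metaplasia also holds Ptf1a, Rbpjl, Bhlha15 and Nr5a2, which keep acinar cells differentiated. Of the 25, 8 were higher and 0 lower in HFD at an unadjusted p under 0.05, beside 11.5% and 8.35% of all genes, with a median of 0.40. Areg, an EGF receptor ligand, was 2.46 ± 0.60 higher in HFD (limma adjusted p = 0.179), with 3.42, 3.65 and 3.70 in LFD, 4.43, 6.69 and 7.03 in HFD, and 4.74 and 4.96 in ob/ob. Dclk1, which marks tuft cells, was 1.41 ± 0.45 higher in HFD and 2.03 ± 0.50 higher in ob/ob (adjusted p = 0.193 and 0.180). Onecut2 was described above. In ob/ob against LFD 1 of the 25 was higher (Dclk1) and 1 lower (Tgfa, -0.77), beside 11.6% and 7.18% of all genes, with a median of -0.01. In ob/ob against HFD 0 were higher and 5 lower, beside 2.28% and 1.63%, with a median of -0.27.

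Lists of markers of other cell types that a pancreas sample can hold were counted in the same way, and 0 of their genes passed the adjusted threshold. For comparison with the counts that follow, the shares of all genes under an unadjusted p of 0.05 against LFD were 11.5% (higher) and 8.35% (lower) for HFD, and 11.6% and 7.18% for ob/ob. The acinar list had 0 genes higher and 3 lower in HFD (Pla2g1b, Gp2 and Prss3) and 0 and 2 in ob/ob at an unadjusted p under 0.05, with medians of -1.97 and -2.09. The mean over 10 fibroblast genes was 9.08 to 9.52 in LFD, 9.91 to 10.71 in HFD and 10.35 to 11.08 in ob/ob, and 5 and 8 of them were higher than in LFD. For 10 macrophage genes the ranges were 8.63 to 9.02, 9.25 to 10.23 and 10.07 to 10.67 (5 and 9 higher), and for 7 neutrophil genes 5.0 to 5.67, 6.42 to 7.70 and 6.24 to 6.55 (7 and 4 higher). Of 16 islet genes 0 were higher in HFD and 7 in ob/ob, of 8 endothelial genes 1 and 0, and of 8 adipocyte genes 0, with 1 lower in each (Cfd). Of 9 mesothelial genes 1 was higher in HFD (Msln) and 2 lower (Upk3b and Lrrn4), and 0 and 2 in ob/ob. Of the 4 basal or squamous genes in the table and of the 8 B cell genes 0 passed in either comparison, although LFD replicate 2, which had the highest Krt19 and Krt7 of its group, had a Pax5 of 7.13 against 1.57 to 2.80 elsewhere. The part of these cell types in the member values was not tested.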

How the data were processed

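RNA-seq of bulk pancreas from 3 LFD, 3 HFD and 2 ob/ob mice was used. Samples were grouped by the labels. Per the labels and the methods of the study, the authors checked reads with FastQC, quantified them with Salmon 0.11.3 against GENCODE transcripts of GRCm38.p6, summarised them per gene and deposited rlog values from DESeq2 1.22.2, which are log2 values adjusted for library size. The deposited values are labelled as filtered, but the rule of the filter is not given in the sources used here. Shares of all genes are therefore shares of a filtered set. The table holds 15047 genes with values from 0.47 to 24.32 and no columns of other samples (0), and the depth per sample is unknown.

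Because rlog values are not counts, no count test was run. Group means of all 8 mice were fitted with limma 3.58.1 in R 4.3.3, letting the variance follow the gene mean and without further filtering, with Benjamini-Hochberg adjustment over all genes and a threshold of 0.05. Standard errors and 95% intervals come from this fit. Data were simulated for HFD against LFD over 15047 genes, 200 of them changed, with noise drawn independently for each gene. The fit called 0%, 42%, 94% and 100% of genes shifted by 2, 4, 8 and 16 SD, with 11 false calls. These rates need not hold for genes that vary together between mice. Keratin partners were compared with an exact permutation test (SciPy 1.17.1) that was added after the data were examined.

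The members and the 12 other gene lists were chosen with earlier results of these data known. Of the listed genes, 1 metaplasia gene, 1 acinar gene, 4 basal or squamous genes and 3 neutrophil genes had no row. The genes named besides the members were the 2 rows most like each member and the 3 genes of each list with the smallest unadjusted p in either comparison with LFD; other named genes were picked after their values were seen. Promoter windows came from RefSeq, and transcripts were compared by shared 31-base words from GENCODE M21. A planned correlation of the members with the acinar level was not run, because the mice fall into separate acinar levels. Alternatives were another variance model, the compared groups alone, a mean rlog of at least 5, median centring, quantile normalization, a replicate block, an acinar covariate and leaving out mice.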

Additional observations from a re-analysis of the deposited data

How the results depend on the processing

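Of 432 values of the 9 members under the alternatives, 398 kept their direction and their side of the threshold, 5 newly passed it (the 4 keratins and Epcam in HFD against LFD without HFD replicate 1) and 29 changed sign. The count overstates how firm the direction is, because several alternatives leave the difference itself unchanged by construction. These are another variance model, the compared groups alone, a mean rlog of at least 5 and leaving out a mouse of the third group. For HFD against LFD the replicate block is another. Only the side of the threshold could change there. In all 3 comparisons 0 genes passed an adjusted p of 0.05 in limma at 8 mice, with 2985, 2831 and 588 at an unadjusted p under 0.05 for HFD against LFD, ob/ob against LFD and ob/ob against HFD.

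For HFD against LFD, 1 gene passed the adjusted threshold with only the groups compared and 1 without HFD replicate 3 and ob/ob replicate 2 together (an alternative chosen after seeing the data), and 0 to 2812 without single mice, the highest without HFD replicate 1. The unadjusted count was 1593 with the acinar covariate and 1480 to 5445 without single mice. For ob/ob against LFD the adjusted count was 38 with only the groups compared, 1 with the acinar covariate and 0 to 89 without single mice, and the unadjusted count was 1507 with the covariate, 930 without both mice and 752 to 4075 without single mice. For ob/ob against HFD the adjusted count was 1 with the covariate, 1 without both mice and 0 to 1 without single mice, and the unadjusted count was 353 with the groups alone, 389 at a mean rlog of at least 5, 1192 with the covariate, 344 without both mice and 369 to 1117 without single mice.

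Changes of sign were as follows, and the cause was not tested. In HFD against LFD, Sox9 was 0.066 with the covariate, 0.053 without both mice and -0.055 to 0.053 without single mice, Onecut1 was 0.15 with the covariate, Prom1 was -0.049 to 0.23 without single mice, and Cd24a was -0.042 after median centring and -0.050 to 0.17 without single mice. In ob/ob against LFD, quantile normalization gave 0.056 for Krt19, 0.16 for Krt8 and 0.010 for Epcam, the covariate gave -0.065 for Krt7, 0.0036 for Sox9 and 0.19 for Onecut1, leaving out both mice gave 0.54 for Krt19, 0.11 for Krt8 and 0.39 for Epcam, and leaving out single mice gave -0.56 to 0.54, -0.35 to 0.11 and -0.53 to 0.39 for these 3. In ob/ob against HFD, Onecut1 was 0.044 with the covariate, 0.35 without both mice and -1.07 to 0.97 without single mice.

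Replicate numbers are shared across groups, but nothing says that they pair the mice. The same-number correlations were -0.06, 0.11 and -0.28 for LFD with HFD, -0.10 and 0.13 for LFD with ob/ob, and 0.59 and 0.30 for HFD with ob/ob, and not every mouse correlated best with its own number. With the replicate block 0 genes passed the adjusted threshold in each comparison, the unadjusted counts were 3255, 3243 and 467, the 6 members under an unadjusted p of 0.05 in ob/ob against HFD became 0, Krt19 and Krt8 were 0.10 and 0.061 in ob/ob against LFD, and the block changed no adjusted call of a member. Leaving out 1 ob/ob mouse leaves a lone mouse that is assumed to vary like the other groups. Depth cannot be judged from rlog values, and 2 to 3 mice a group limit every comparison.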
